A study of Mus musculus with 15 samples.

Results

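The 46 genes described here encode transcription factors of the Pax, Tbx, Lhx, sine oculis (Six2 and Six6), Nkx2, Dlx, En, Otx, Emx, Sox and Gata families, together with Wt1, that pattern organs other than the endocrine pancreas. They were taken by name from a list drawn up with earlier results of these data known, by a rule that itself uses no measured value, and all 46 were found among the 21938 protein-coding genes of the mouse annotation. For each gene, peaks of 2 histone marks were read at the start site (1 kb either side) and over the gene body with 5 kb either side. The islets came from CBA mice on 1 of 3 diets. RD was regular diet, HFD was high-fat diet, and HFD-O304 was the same high-fat diet formulated with O304, an AMPK activator. Each of the 6 combinations of mark and diet had 2 replicates of pooled, hand-picked islets, which the authors merged before calling 1 list of peaks, and 3 input samples, 1 per diet, entered no list. No spread between replicates could therefore be measured, and no difference between diets below was tested. Where 3 values follow each other without a diet, they stand in the order RD, HFD, HFD-O304.

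H3K27Me3, trimethylation of lysine 27 of histone H3, is laid down by the Polycomb repressive complex PRC2. In differentiated cells it typically lies in broad domains over the CpG-rich promoters of developmental regulators that belong to other lineages. H3K27Ac, acetylation of the same lysine, marks active promoters and enhancers and cannot occupy the same residue of the same histone tail.

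In these islets the regulators carried H3K27Me3 and almost no H3K27Ac. A peak of H3K27Me3 lay at the start site of 35 of the 46 genes for RD, 42 for HFD and 42 for HFD-O304, where the same share over all protein-coding genes was 6.63%, 8.46% and 8.88%. Over the gene body with flanks the counts were 44, 45 and 45, against 19.0%, 19.7% and 22.9% of all genes. H3K27Ac lay at the start site of 1, 2 and 1 of the 46, against 44.1%, 49.9% and 49.4% of all genes. Over the gene body with flanks H3K27Ac was called at 3, 6 and 2 of them (all genes 54.3%, 60.8% and 59.7%). Lhx1, which is required for kidney and head formation, was the exception in all 3 diets, with H3K27Ac at its start and no H3K27Me3 peak anywhere in its window.

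The promoters of 3 genes are printed to show the DNA on which these opposite states lay, with every CG dinucleotide in capitals. Each is the 250 bases before a RefSeq start in GRCm38.p6, read 5′ to 3′ in the direction of transcription. Lhx1 (chr11:84525535-84525784, minus strand) was under an H3K27Ac peak in all 3 diets. Lhx2 (chr2:38339031-38339280, plus strand) and Dlx2 (chr2:71546755-71547004, minus strand) overlapped H3K27Me3 peaks in all 3 diets, the Dlx2 stretch only in part in RD. Averaged over the diets, these had the highest start-site H3K27Me3 levels among the 35 regulators with a peak in all 3.
Lhx1: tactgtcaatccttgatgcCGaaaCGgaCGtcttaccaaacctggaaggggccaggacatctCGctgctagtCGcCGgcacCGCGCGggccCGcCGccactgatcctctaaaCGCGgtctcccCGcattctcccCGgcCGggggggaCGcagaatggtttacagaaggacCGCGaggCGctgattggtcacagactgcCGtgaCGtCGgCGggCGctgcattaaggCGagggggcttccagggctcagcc
Lhx2: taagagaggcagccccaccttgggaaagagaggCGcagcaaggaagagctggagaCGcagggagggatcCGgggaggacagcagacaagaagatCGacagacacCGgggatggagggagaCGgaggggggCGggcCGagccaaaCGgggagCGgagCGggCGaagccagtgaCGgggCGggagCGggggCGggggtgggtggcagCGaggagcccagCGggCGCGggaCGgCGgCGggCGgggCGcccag
Dlx2: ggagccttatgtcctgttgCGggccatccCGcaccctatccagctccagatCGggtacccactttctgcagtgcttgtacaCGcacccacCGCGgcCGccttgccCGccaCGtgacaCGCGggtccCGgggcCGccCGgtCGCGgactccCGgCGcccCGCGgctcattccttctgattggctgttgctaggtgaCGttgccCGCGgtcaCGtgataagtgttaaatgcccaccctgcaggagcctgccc
The Lhx1 stretch held 26 CG dinucleotides, that of Lhx2 held 25 and that of Dlx2 held 24, against a median of 6 over 32851 RefSeq promoters of this length, of which 92.1% held at least 1. At least as many as in Lhx1 were found in 9.59% of all promoters, and at least as many as in Dlx2 in 12% of them. The acetylated promoter and the trimethylated ones thus had nearly the same number of CG in these windows. Entries matched 33 of the 46 genes, with a median of 17 CG in their 44 promoters. In the Lhx1 stretch, 89 bases are also exon of an annotated transcript on the other strand, and the antisense gene Lhx1os starts within 1 kb of the same acetylated peak.

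Over the whole start-site window of 1 kb either side, the ratio of observed to expected CpG had a median of 0.606 at the 46 genes and 0.474 over all genes. It reached 0.6, here called CpG-rich, at 24 of the 46 (52.2%) and at 33.9% of all genes. The range ran from 0.137 at Lhx4, a pituitary and motor neuron factor, to 0.943 at Tbx18, a factor of the somites and the outer layer of the heart. CpG-rich genes in general were acetylated in islets, with H3K27Ac at 82.5%, 88.4% and 88.0% of them in RD, HFD and HFD-O304 and H3K27Me3 at 9.4%, 11.6% and 11.0%. The 24 CpG-rich regulators had the reverse pattern, with H3K27Me3 at 17, 22 and 22 and H3K27Ac at 1, 2 and 1. The 22 others carried H3K27Me3 at 18, 20 and 20 and no H3K27Ac, where genes under 0.6 in general had H3K27Me3 at 5.21%, 6.83% and 7.78% and H3K27Ac at 24.4%, 30.1% and 29.6%.

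**Figure D1:**
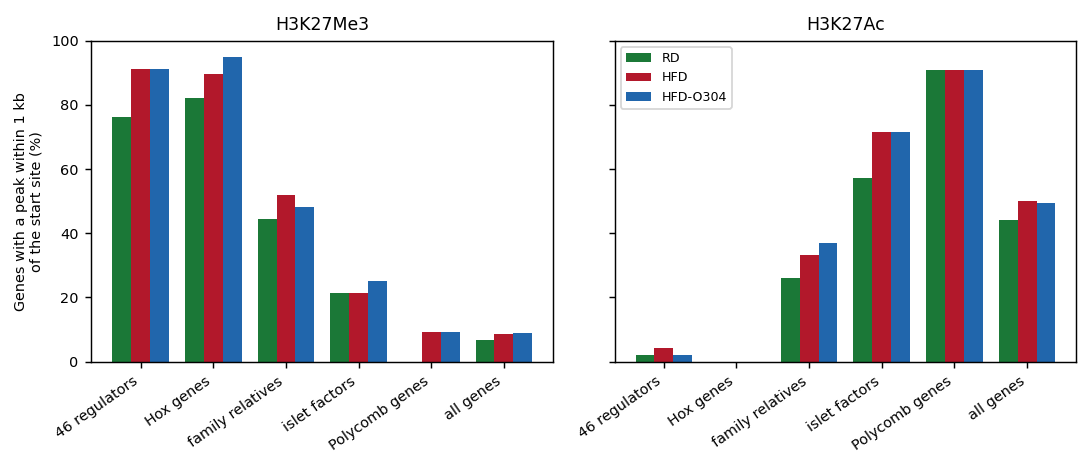
Share of genes (%, vertical axis from 0 to 100) with a peak within 1 kb of the start site, for H3K27Me3 on the left and H3K27Ac on the right, with 1 bar per diet and no replicate error. The 46 regulators and the 39 Hox genes stand high for H3K27Me3 and at or near 0 for H3K27Ac, while islet factors and genes of the Polycomb and H3K27 machinery show the opposite order.

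Other gene lists place these values in the same tissue. The 39 Hox genes, the classic Polycomb targets, carried H3K27Me3 at 32, 35 and 37 start sites in RD, HFD and HFD-O304 and H3K27Ac at none. Among 28 transcription factors of islet cells, H3K27Ac was called at 16, 20 and 20 and H3K27Me3 at 6, 6 and 7. Pdx1, Mafa, Foxa2 and Rfx6 were among those with H3K27Ac and no H3K27Me3 in every diet. Another 27 genes of the regulators' own families carried H3K27Me3 at 12, 14 and 13 and H3K27Ac at 7, 9 and 10. Within that list, Pax6, Isl1 and Nkx2-2, which are islet factors and stand in both lists, had H3K27Ac and no H3K27Me3 in all 3 diets, as did Six5 and Mga. Their relatives Pax2, Pax5, Lhx2 and Nkx2-1 had H3K27Me3 and no H3K27Ac at the start site in all 3. Both marks were called at Gata6 under HFD with or without O304. In single diets they also met at Six4 (RD), Nkx2-4 (HFD), Lmx1a and Nkx6-1 (both HFD-O304). The 11 genes for H3K27 enzymes and their partners, among them Ezh2, Eed and Suz12 of PRC2, carried H3K27Ac at 10 start sites in each diet and H3K27Me3 at 0, 1 and 1. The 1 gene with H3K27Me3 among the latter was Phf19, a PRC2 partner.

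The labelled tissue was checked on markers of islets and of other cells that an islet preparation could hold. H3K27Ac lay at 5 of 12 endocrine marker genes in each diet, with Chga, Chgb, Pcsk1 and Pcsk2 in all 3. That is 41.7%, where all genes had 44.1%, 49.9% and 49.4%, so this count did not set endocrine markers above genes in general. No peak was called within 1 kb of the start of Ins2, Gcg or Sst. Of acinar markers 1 of 9 (Bhlha15) and of duct markers 2 of 6 were acetylated in each diet, endothelial markers were acetylated at 2, 0 and 1 of 10 in RD, HFD and HFD-O304, and stromal and immune markers at 0 of 10 each. H3K27Me3 lay at 0 of 12 endocrine and 0 of 10 immune markers in each diet. It lay at 0, 0 and 1 of 9 acinar markers and at 1 of 6 duct markers in each diet. For endothelial markers the counts were 4, 5 and 5 of 10, and for stromal markers 3, 4 and 6 of 10. All genes had 6.63%, 8.46% and 8.88%. In bulk islets, fewer cells with a mark and less of the mark per cell cannot be told apart.

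The level of a peak is given as its mean pileup (fragments per base) divided by the uniform background expected from the fragments kept in that list. The lowest level that was called differed between the H3K27Me3 lists, at 2.74, 3.10 and 2.97, so levels near these limits do not have a common footing. The H3K27Me3 lists kept 74870300, 54166902 and 57324419 fragments, after 45.7%, 55.0% and 56.9% had been removed as duplicates. These depths and duplicate shares moved with the diets, and their part in the differences below was not tested. A 95% Poisson interval on the fragments in a peak is given with some levels and covers counting error only.

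Among genes with a start-site peak, the median H3K27Me3 level of the regulators was 3.06 over the 35 genes of RD, 3.86 over the 42 of HFD and 3.70 over the 42 of HFD-O304. Over all protein-coding genes with such a peak it was 3.05, 3.61 and 3.45. The regulators were thus at the middle of the trimethylated genes in RD (median percentile 50.9) and above it in HFD and HFD-O304 (72.1 and 71.0).

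**Figure D2:**
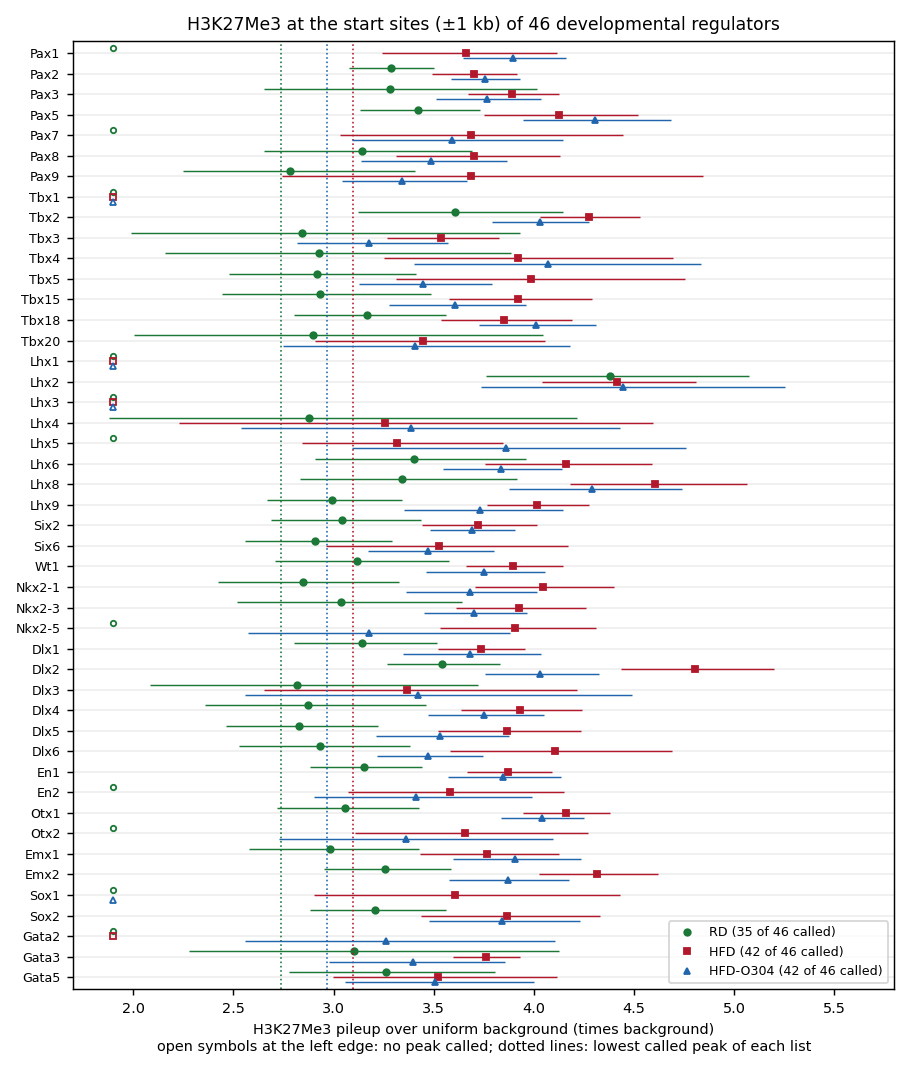
H3K27Me3 level at the start site of each of the 46 regulators (horizontal axis, times uniform background) by diet, with 95% Poisson counting intervals as lines, the lowest called level of each list as a dotted line, and open symbols at the left edge where no peak was called. All 35 genes called in both RD and HFD were higher in HFD, and Lhx2 had nearly equal levels in the 3 diets.

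Lhx2, a regulator of forebrain, eye and hair follicle, had the highest level averaged over the diets, at 4.38 for RD (interval 3.76 to 5.08), 4.41 for HFD (4.04 to 4.81) and 4.45 for HFD-O304 (3.73 to 5.25). Its 3 values were closer together than their counting intervals were wide. Dlx2, which acts in forebrain interneurons and the first pharyngeal arch, had 3.54 for RD (3.27 to 3.83), 4.80 for HFD (4.43 to 5.20) and 4.03 for HFD-O304 (3.75 to 4.33). Its HFD interval lay above both of the others. Lhx8, a factor of cholinergic neurons, had 3.34, 4.61 and 4.29 in RD, HFD and HFD-O304. Tbx2, active in heart and eye, had 3.61, 4.28 and 4.03, and the B cell factor Pax5 had 3.42, 4.12 and 4.30. The remaining genes of the 10 highest averages were Emx2 and Otx1 of the forebrain, Lhx6 of cortical interneurons, Tbx18 and the neural crest and muscle factor Pax3. Their levels ran from 3.06 (Otx1) to 3.40 (Lhx6) in RD. The HFD values ran from 3.85 (Tbx18) to 4.31 (Emx2), and those of HFD-O304 from 3.76 (Pax3) to 4.04 (Otx1). In all of them RD was the lowest of the 3 values.

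By family, all 6 Dlx genes, Six2 and Six6, both Emx genes and Wt1, a factor of kidney and gonad, had a start-site peak in every diet. All 7 Pax genes had one in HFD and HFD-O304 and 5 of them in RD. Of the 8 Tbx genes 7 had one in each diet, of the 8 Lhx genes 5, 6 and 6. The 3 Nkx2 genes had 2, 3 and 3. The En and Otx pairs each had 1, 2 and 2, with the RD peak at En1 and at Otx1. The Sox pair had 1, 2 and 1 and the 3 Gata genes 2, 2 and 3. Family medians in HFD lay between 3.62 (Six2 with Six6) and 4.09 (Lhx).

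A start-site call was the same in all 3 diets for 35 genes with a peak (5.14% of all genes had one in all 3) and for 3 without one. Among the 43 regulators with a peak in any diet the 35 made up 81.4%, where the same share was 46.9% of 2406 protein-coding genes. No regulator had a peak in RD that was missing in HFD, which was seen at 241 genes in all, or 10% of those 2406. Pax1, Pax7, Lhx5, Nkx2-5, En2 and Otx2 had a start-site peak in HFD and HFD-O304 and none in RD. Sox1 had one in HFD alone and Gata2 in HFD-O304 alone. A peak in HFD and none in RD was thus seen at 7 of the 43 regulators (16.3%) and at 643 of those 2406 genes (26.7%). In HFD-O304 the peak was also called at 6 of the 7 (85.7%) and at 426 of the 643 (66.3%, or 17.7% of the 2406). An RD peak, which leaves no room for such a gain, was present at 35 of the 43 and at 1455 of the 2406. The shares of 16.3% and 26.7% therefore do not show how readily a gene without an RD peak had one in HFD.

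These 8 genes were not free of the mark in RD. Pax1 and Otx2 had a peak in RD, and Gata2 one in HFD, within 1 kb of the start of another protein-coding transcript. At the somite and thymus regulator Pax1, RD had peaks over coding sequence, of which the nearest was centred 3.85 kb downstream of the start. In HFD a peak of 2641 bp spanned the start (level 3.66), and in HFD-O304 a single peak of 7560 bp did so (3.90). Lhx5, a close relative of Lhx1 that acts in the forebrain, had 2 RD peaks of 3121 and 1254 bp within the gene body. Its start site had a peak of 1812 bp (3.32) in HFD, and one of 737 bp (3.86) in HFD-O304 was centred 0.57 kb upstream. Nkx2-5, a heart factor, had RD peaks only upstream, centred 3.16 and 5.39 kb before the start. A peak of 3505 bp (3.91) spanned its start in HFD, and a peak of 988 bp (3.18) lay inside the gene in HFD-O304. Otx2, required for the head and eye, had 4 RD peaks in its window and start-site peaks of 1496 bp (HFD, 3.66) and 953 bp (HFD-O304, 3.36). The muscle and neural crest factor Pax7 had levels of 3.69 and 3.59 in HFD and HFD-O304, and the midbrain and hindbrain factor En2 had 3.58 and 3.41. The neural progenitor factor Sox1 had a start-site peak of 869 bp (3.61) in HFD. In HFD-O304 its nearest peaks were centred 4.33 kb upstream and 6.23 kb downstream. Gata2, a factor of blood progenitors and endothelium, had 1 RD peak of 282 bp in its window, 2 HFD peaks of 3775 and 1573 bp in the gene body, and a 726 bp peak at the start (3.26) in HFD-O304.

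**Figure D3:**
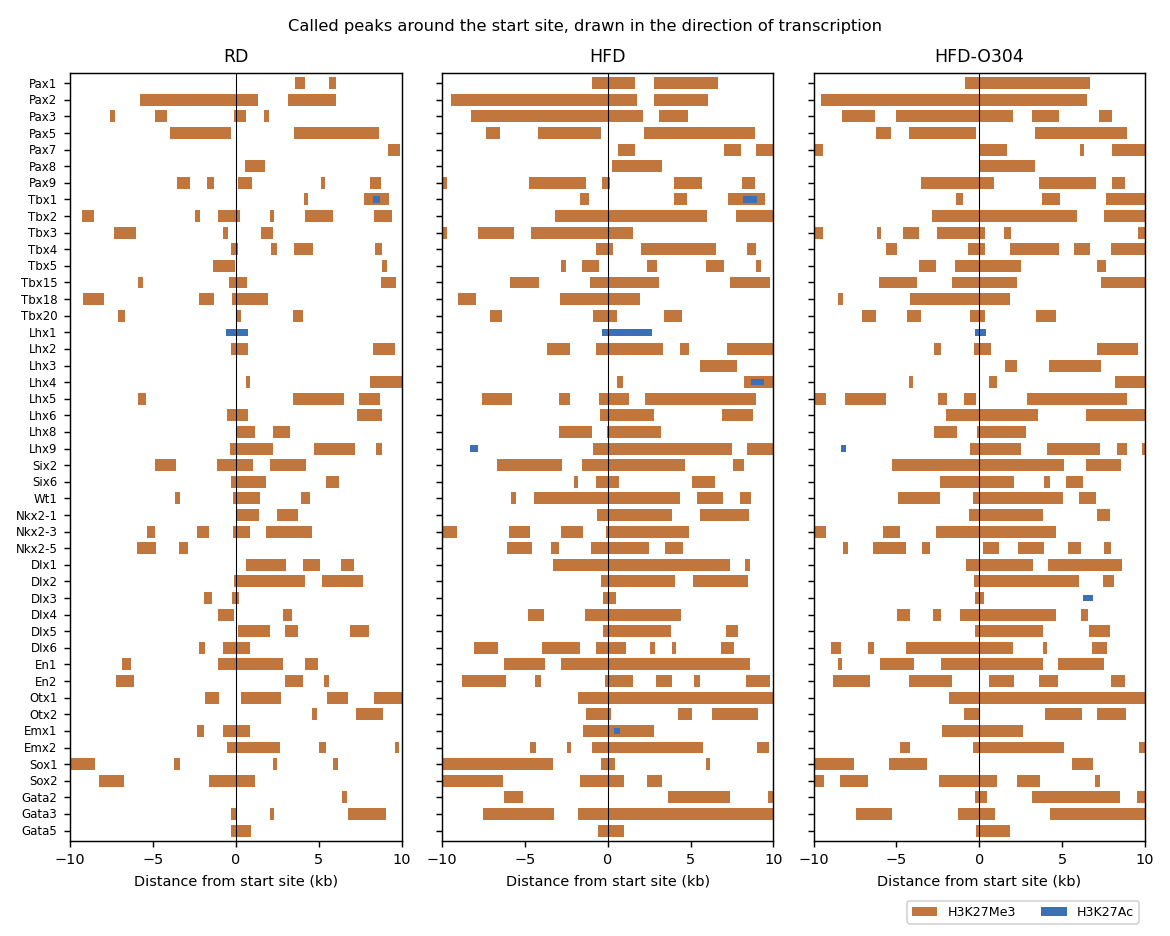
Called peaks within 10 kb of the start site of each regulator, drawn in the direction of transcription (horizontal axis in kb, start site at 0), with H3K27Me3 as wide bars and H3K27Ac as narrow bars, 1 panel per diet. Bars are longer and more often joined in HFD and HFD-O304 than in RD, and the Lhx1 row holds H3K27Ac only. The H3K27Ac bars upstream of Lhx9 lie beyond its window of 5 kb.

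The domains were broad. The widest start-site peak of a regulator had a median width of 1366, 3910 and 4015 bp, against 791, 1209 and 1116 bp over all protein-coding genes with a start-site peak. Hox genes had 992, 3058 and 3216 bp. By width the regulators' median percentile among those genes was 75.6, 88.7 and 89.5, and 5, 12 and 11 of the 100 widest were regulators. The start site itself was under a peak at 24, 37 and 37 of the 46 genes. Within 10 kb of it, more of the covered length lay downstream than upstream, with 30.2%, 37.2% and 35.7% upstream in RD, HFD and HFD-O304. Cover of the start site itself and the upstream share were not computed over all genes, so neither is shown to be particular to the regulators.

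**Figure D4:**
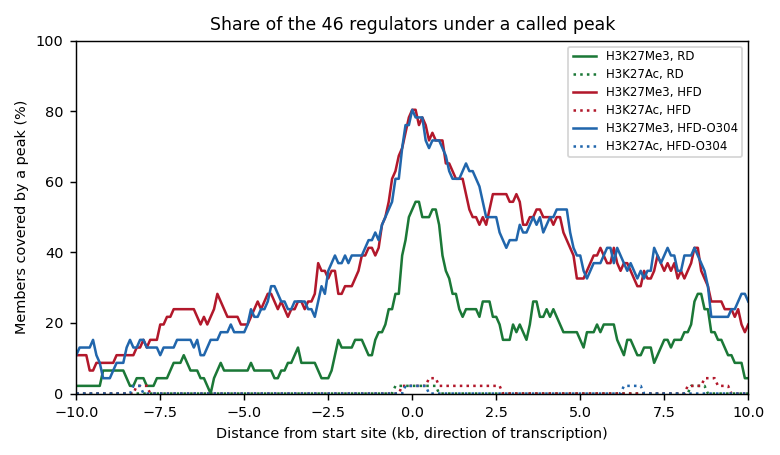
Share of the 46 regulators (%, vertical axis) under a called peak at each distance from the start site (horizontal axis in kb, in the direction of transcription), with solid lines for H3K27Me3 and dotted lines for H3K27Ac, coloured by diet. H3K27Me3 cover peaks within 0.132 kb of the start site, with at most 26 genes in RD and 37 each in HFD and HFD-O304, and 24 genes were covered at the start site itself in RD.

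Over the gene body with 5 kb either side, the length under H3K27Me3 peaks had a median of 2.83, 6.64 and 7.55 kb per regulator, in windows with a median of 21.4 kb. The median over all genes was 0 in each diet. More than 5 kb was covered at 11, 31 and 35 of the regulators, and at 206, 378 and 455 of all 21938 protein-coding genes.
Pax2, a kidney and ear factor, had the longest coverage averaged over the diets, at 11418, 12690 and 16041 bp. Gata3, a regulator of T cells, had 6340, 19878 and 13485 bp. Its start-site peak measured 376 bp for RD, 18133 bp for HFD, the widest among the 46, and 2262 bp for HFD-O304. Lhx2 had 6504, 19305 and 12763 bp, while its level hardly moved. Tbx15, a skeletal regulator, had 6049, 13698 and 17219 bp, and Otx1 had 6251, 11985 and 12045 bp. Pax5, Tbx2, En1 of the midbrain and hindbrain, Six2 of nephron progenitors and Lhx4 completed the 10 most covered, with 4718 (En1) to 9468 bp (Pax5) in RD, 9143 (Six2) to 14239 bp (Tbx2) in HFD and 10014 (En1) to 13793 bp (Tbx2) in HFD-O304. The 10 most covered genes all had less under peaks in RD than in either other diet.

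**Figure D5:**
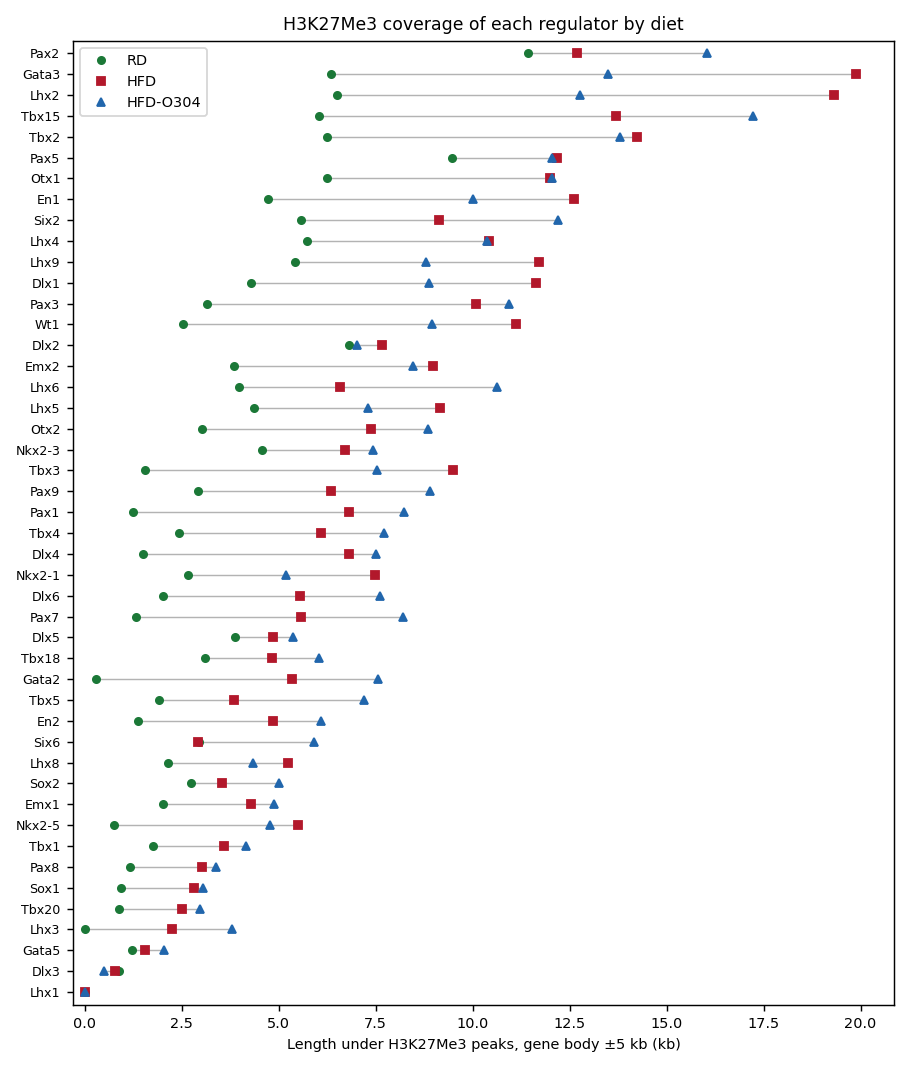
Length under H3K27Me3 peaks over the gene body with 5 kb either side (kb, horizontal axis) for each regulator in RD, HFD and HFD-O304, sorted by the mean of the 3, with a grey line from the lowest to the highest. RD is the lowest value at all genes with any peak except Six6 and Dlx3.

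Set side by side, the pairs of lists differed as follows at the regulators. In HFD over RD, the ratio of levels at the 35 genes called in both had a median of 1.23 (range 1.01 to 1.42) and exceeded 1 at 35 of 35. Over all 1214 protein-coding genes called in both, the median was 1.21 and 96.1% were higher in HFD, and the lowest callable level itself was 1.13 times higher. The rise in level at the regulators was therefore near that of all trimethylated genes. The counting intervals lay apart at 16 of the 35, each higher in HFD, a count not made over all genes for any pair of lists. The width ratio of start-site peaks had a median of 2.64, with 31 of 35 wider in HFD, where all genes had 1.53 and 78.4% wider. Covered length was greater in HFD at 43 of the 45 genes with any peak, less at Six6, an eye factor, and at Dlx3, a factor of skin and placenta, and at least 2 times greater at 30 of the 44 genes covered in RD. Of all genes with a peak in either list, 58.7% had more covered length in HFD, by any amount. The share of all genes with at least 2 times more was not computed. Covered length summed over the regulators was 343 kb in HFD and 154 kb in RD. The ratio was 2.23, where Hox genes gave 2.39 and all genes 1.34.

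In HFD-O304 over RD, the median ratio of levels was 1.20 with 35 of 35 higher (all genes 1.16 and 92.5% higher, lowest callable level 1.08). The counting intervals lay apart at 10 of the 35. The width ratio was 2.91 with 35 of 35 wider (all genes 1.50 and 79.9%). Covered length was greater at 44 of 45, Dlx3 being the exception, against 72.7% of all genes, and the summed ratio was 2.31 against 1.61. In HFD-O304 over HFD, the median ratio of levels was 0.962 with 10 of 41 higher. Over all genes it was 0.964 with 32.9% higher, and the ratio of lowest callable levels was 0.958. The counting intervals lay apart at 1 of the 41, Dlx2, which was lower in HFD-O304. The width ratio was 0.998 with 19 of 41 wider (47.7% of all genes). Covered length was greater in HFD-O304 at 28 and less at 17 of 45 genes (greater at 64.0% of all genes), and the sums were 355 and 343 kb. The comparisons share lists with each other and are not independent. At the regulators HFD-O304 and HFD thus differed little in typical level and width, and both lay above RD.

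The contrast of RD with the other lists depended on the limit of calling. With only peaks at or above a common minimum level of 3.10, H3K27Me3 was called at 17 of the 46 start sites in RD and at 42 and 42 in HFD and HFD-O304, against 2.91%, 8.46% and 7.99% of all genes. With a −log10 q of at least 5 it was called at 5, 19 and 16, against 1.08%, 2.22% and 2.13%. Under the latter limit the 5 RD genes were Pax5, Tbx2, Lhx2, Lhx6 and Dlx2, and all 5 were also called in HFD and HFD-O304. The fragments in a regulator's start-site peak had medians of 177, 456.5 and 448.5.

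The H3K27Me3 peaks of the regulators lay largely outside repeats. There were 129, 138 and 145 distinct peaks in their windows, of which 0, 0 and 2 had at least 50% repeat-masked bases. In the whole lists 67.1%, 62.5% and 67.9% of H3K27Me3 peaks were of that kind. Among neighbouring regulators, a shared peak was called for a single pair. Dlx1 and Dlx2, which face each other 18.6 kb apart measured between start sites, shared an intergenic peak that measured 3280 bp for HFD and 705 bp for HFD-O304. No peak was shared by Dlx5 and Dlx6 (18.8 kb apart) or by Dlx3 and Dlx4 (26.1 kb). None was shared by Tbx2 and Tbx4 (53.9 kb), Pax9 and Nkx2-1 (154.9 kb) or Tbx3 and Tbx5 (162 kb). The windows of these last pairs lie further apart than the widest peak of the regulators (18133 bp), so a shared peak could not have been found.

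Of the 46, 3 genes had no H3K27Me3 at the start site in any diet. This holds for the 5′ end of the gene record. At the start of another protein-coding transcript, H3K27Me3 was called for Tbx1 in all 3 diets and for Lhx3 in HFD-O304. Tbx1, a regulator of the pharyngeal arches and the cardiac outflow tract, carried it toward its 3′ end, in a peak of 1505 bp for RD (level 3.10), 2232 bp for HFD (3.80) and 2687 bp for HFD-O304 (3.83). In HFD and HFD-O304 it also had a peak centred 1.39 and 1.21 kb upstream, just outside the window. Lhx3, which acts in pituitary and motor neurons, had no H3K27Me3 peak in RD, 1 peak of 2248 bp in the gene body in HFD (3.19), and 2 of 3088 and 700 bp in HFD-O304 (3.06 and 3.53).

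The third was Lhx1 (chr11:84518284-84525535, minus strand). An H3K27Ac peak spanned its start in each diet, at chr11:84524784-84526118 (RD), chr11:84522856-84525890 (HFD) and chr11:84525104-84525823 (HFD-O304). The levels were 2.64 (interval 2.25 to 3.09), 2.40 (2.17 to 2.66) and 2.43 (1.92 to 3.02), with widths of 1335, 3035 and 720 bp. These intervals overlapped, and the levels were low for the mark, whose median at all start sites with a peak was 3.17, 3.27 and 3.30. None of the 3 peaks reached a −log10 q of 5, the highest being 3.30 in RD. A stronger H3K27Ac peak in the Lhx1 window, with levels of 3.20, 3.33 and 3.31, lay at the start of the neighbouring gene Aatf. When the H3K27Ac lists were shortened to the size of the shortest, the peak at the start of Lhx1 was kept in RD and lost in HFD and HFD-O304.

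The few other H3K27Ac peaks were weak and mostly inside H3K27Me3 domains. At the cortical factor Emx1, an H3K27Ac peak of 357 bp in HFD (chr6:85187846-85188202, level 2.57, interval 1.89 to 3.42) lay wholly within the H3K27Me3 peak of the same diet. It was the only start site of the 46 with both marks in the same diet, where 1.75%, 2.84% and 2.39% of all genes had both in RD, HFD and HFD-O304. The H3K27Me3 level of Emx1 was 2.98, 3.77 and 3.91. H3K27Ac also lay wholly within H3K27Me3 at the 3′ end of Tbx1 in RD (439 bp) and HFD (825 bp), over coding sequence of Lhx6 in RD (673 bp) and HFD (336 bp), and in an intron of Lhx4 in HFD (778 bp). The Lhx4 peak also lay within 1 kb of the start of another protein-coding transcript of Lhx4. Peaks in the flanks of Pax8, a thyroid factor, in HFD (318 bp) and of Dlx3 in HFD-O304 (612 bp) met no H3K27Me3. Whether the overlapping marks were on the same or on different cells or alleles was not measured. The levels of these peaks lay between 2.37 at Pax8 and 2.67 at Tbx1, near the lowest callable H3K27Ac levels of 2.40, 2.26 and 2.37.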

How the data were processed

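The authors mapped paired-end ChIP-seq reads of 12 ChIP samples to GRCm38 (Ensembl 96) with bowtie2, merged the 2 replicates of each mark and diet, and ran MACS 2.1.2 in its broad mode. Per the file headers there was no control file, the background was uniform, 1 fragment was kept per position and the q cutoff was 0.01. The deposited pileup is a coverage signal (mean fragments per base in a peak), the deposited fold is a ratio to background after adding 1, and −log10 p and −log10 q are the authors' MACS scores. The 6 lists held 15438 to 22049 peaks for H3K27Me3 and 16314 to 21674 for H3K27Ac.

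Genes came from GENCODE M21 (chromosomes 1 to 19, X and Y). The start site was the 5′ end of the gene record, and overlap needed 1 bp. Level was pileup divided by the uniform background, itself kept fragments times fragment size divided by the effective genome size (1.87e+09). The highest peak was used where several overlapped. A member's width was that of its widest start-site peak. Overlap code was tested on simulated data. Sequence features were read from the C57BL/6J reference, although the mice were CBA. Members and lists were chosen with earlier results of these data known. Values in full were given for members with H3K27Ac at the start, the 10 highest by level and by coverage, those without start-site H3K27Me3 and those whose call differed by diet. Python 3.11.15, pandas 2.3.3, numpy 2.4.6 and scipy 1.17.1 were used.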

Additional observations from a re-analysis of the deposited data

How the results depend on the processing

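No paired analysis was possible because each list pools its replicates, which also means that none of them could be omitted in turn. Across 10 alternative settings, 24 results gave 166 alternative values, of which 139 stayed within 1.5 times (counts) or within the 95% interval of the median over members (levels, lengths and ratios) and 27 moved, none reversing. Of the 27, 19 came from requiring a −log10 q of at least 5. That limit left H3K27Me3 at 5, 19 and 16 start sites in RD, HFD and HFD-O304 and over 15, 26 and 29 gene bodies with flanks, with median levels of 3.54, 4.04 and 3.96 and median covered lengths of 0, 1.02 and 1.02 kb. For the gene bodies with flanks, the share over all genes under that limit was not computed. The same limit left H3K27Ac at 0, 0 and 0 start sites and over 1, 1 and 1 windows, which was Lhx1 through the peak at Aatf. It left both marks at 0 start sites in HFD. A common minimum level left 17 start sites in RD, with a median level of 3.26, a median covered length of 1.24 kb and a median ratio of HFD-O304 over RD of 1.15. Lists of equal size left H3K27Ac at 1 start site in HFD (Emx1) and 0 in HFD-O304. Counting the start of any protein-coding transcript gave 2 genes with both marks in HFD (Emx1 and Lhx4), and the gene body alone left H3K27Ac at 1 gene in HFD-O304. The former setting gave H3K27Me3 at 38, 44 and 44 start sites, against 7.59%, 9.45% and 10% of all genes. It added Tbx1 in all 3 diets, Pax1 and Otx2 in RD, Gata2 in HFD and Lhx3 in HFD-O304. Windows of 500 bp and 2 kb, an overlap of 200 bp, removal of peaks rich in repeats and assignment to the nearest start moved no value by that measure. Depth and the calling limit of each list bound what could be detected, so a missing peak does not show that the mark was absent.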
